A study of Mus musculus with 10 samples.

Results

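Glomeruli of 5 wild-type mice (Wt1 +/+), out of 10 mice profiled in the series, were described here by the signal of each gene on the array. These 5 arrays were chosen by the label that gives the mouse as wild-type, and the arrays of the mutant mice enter no result below. All 5 were unweaned males aged 27 days on the FVB/N background after 4 backcross generations. Stretches of the donor strain's genome may therefore remain and may differ between mice. The litters were not given in the sources used here. Glomeruli were collected after magnetic beads had been perfused through the heart, total RNA was labelled with biotin, and 1 array was hybridised per mouse. The values are log2 RMA signals, a scale on which 1 unit is a doubling. Unless another quantity is named, a value with ± is a mean and SD over the 5 mice, and a string of values runs from mouse 1 to mouse 5, numbers that only name the mice.

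The glomerulus is a tuft of capillaries that filters plasma. Its filter has 3 layers: a fenestrated endothelium, a basement membrane of type IV collagen and laminin, and podocytes, epithelial cells whose interlocking foot processes are joined by the slit diaphragm. Mesangial cells, contractile cells related to pericytes, hold the capillary loops together. Isolated glomeruli carry some tubule, vessel and blood cells along. In RNA from a whole preparation, fewer cells of a type and less RNA per cell cannot be told apart.

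Each of 18193 genes was read from 1 probe set, the one of highest mean on these 5 arrays, and the median gene had a signal of 7.50. The 10th percentile of genes was 4.21 and the 90th 10.79. Signals of different probe sets depend on their probes, so an order of genes by signal ranks brightness on the array and not transcript number. The tissue label was met by markers of all 3 filter layers and of the mesangium. Over 5 glomerular lists (2 podocyte lists, basement membrane, endothelium and mesangium), 53 of 116 genes (45.7%) had a mean of at least 12, against 585 of 18193 genes (3.22%) on the whole array. The median over these 116 genes was 11.89. Such a share is not particular to glomerular genes, since 12 of 25 respiratory chain genes (48%) and 19 of 21 ribosomal protein genes (90.5%) also reached 12. The lists were chosen with earlier results of these data known. At the other end, 29 genes typical of other organs, such as the sperm protamine Prm1 (7.41 ± 0.13) and the pancreatic hormone gene Ins2 (7.16 ± 0.14), had a median of 5.49 and none reached 7.50. These genes are not known as glomerular transcripts. The Y-linked genes Eif2s3y (9.17 ± 0.27) and Kdm5d (8.20 ± 0.17) and the female-specific Xist (5.95 ± 0.27) match the stated male sex. The arrays correlated at 0.991 to 0.995 over all probe sets, and none was a copy of another.

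The brightest genes were cytoskeletal, translational and glomerular. Actb, the cytoplasmic beta-actin gene, led with 14.76 ± 0.06, followed by the actin-binding thymosins Tmsb10 (14.59 ± 0.05) and Tmsb4x (14.58 ± 0.05). Igfbp7, a secreted binding protein of insulin-like growth factors that endothelium makes, read 14.49, 14.62, 14.55, 14.55 and 14.60. Its 5 mice differed by no more than 0.13. Podxl, which encodes podocalyxin, the charged coat protein of the podocyte surface, read 14.36, 14.47, 14.42, 14.40 and 14.39, the eighth highest signal of the array. Other glomerular genes among the 25 brightest were the matrix glycoprotein gene Sparc (14.44 ± 0.06), the endothelial Igfbp5 (14.26 ± 0.10), the aminopeptidase gene Enpep of the podocyte membrane (14.10 ± 0.06), the tissue plasminogen activator gene Plat (14.02 ± 0.04), the hypoxia-inducible factor gene Epas1 (13.99 ± 0.04) and the semaphorin gene Sema3g (13.96 ± 0.11). Housekeeping members of the same group were Tpt1, Eef1a1, Rps29, Rpl37a, Actg1 and Uqcrb, and App, Itm2b, Tsc22d1, Sptbn1, Tm4sf1 and Tns3 completed it together with Ccn2 and Hspa8.

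Of the 25 brightest genes, 23 had an SD under 0.15, a limit that about 62% of all genes also met. The 2 exceptions were low in the same mouse. Ccn2, which encodes connective tissue growth factor, read 14.31, 14.54, 13.94, 14.45 and 14.52, and Hspa8, the constitutive cytosolic chaperone of the Hsp70 family, read 14.19, 13.96, 13.22, 14.13 and 14.19. In both, mouse 3 lay under each of the other mice.

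**Figure D1:**
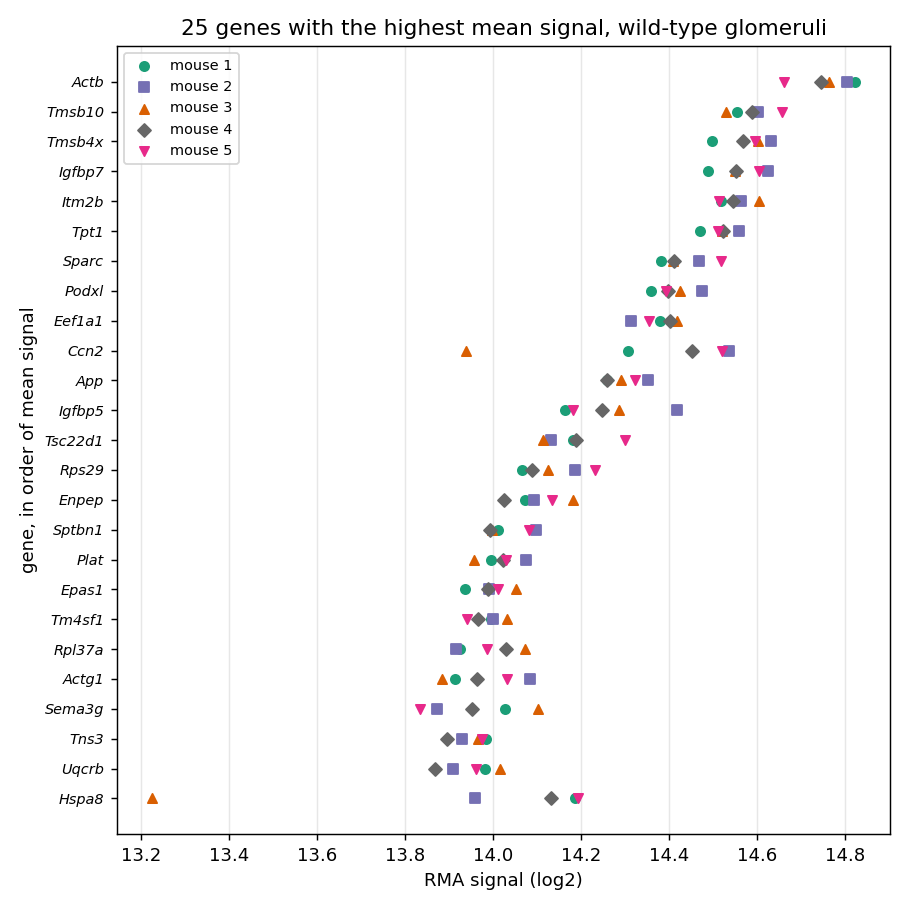
RMA signal (log2, horizontal axis) of the 25 genes with the highest mean over 5 wild-type mice, 1 marker per mouse, genes in order of their mean. The markers of a gene lie within a narrow band in most rows, and mouse 3 lies to the left in Ccn2 (13.94) and Hspa8 (13.22).

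Genes of the slit diaphragm and of podocyte adhesion were bright. Of 18 listed genes 16 were measured, with a median signal of 11.81, a median SD of 0.11 and 7 members of at least 12. Nphs1, which encodes nephrin, the backbone of the slit diaphragm, read 12.95, 13.11, 12.83, 12.94 and 13.02 (chromosome 7). The whole range of its 5 mice was 0.27. The receptor tyrosine phosphatase gene Ptpro of the foot process surface (13.34 ± 0.07), the dystroglycan gene Dag1 (13.10 ± 0.14), the giant cadherin gene Fat1 (12.94 ± 0.10) and the membrane peptidase gene Dpp4 (12.93 ± 0.08) were similarly steady. The junction scaffold gene Tjp1 read 12.90 ± 0.07 and the integrin beta chain gene Itgb1, which anchors podocytes to the basement membrane, 12.64 ± 0.04. Adaptors that link nephrin to actin followed, with Cd2ap at 11.89 ± 0.15, Fyn, the kinase that phosphorylates nephrin, at 11.53 ± 0.12, Nck2 at 10.36 ± 0.12 and Nck1 at 10.21 ± 0.11. Kirrel, which encodes the nephrin partner Neph1, read 10.67 ± 0.16. At the low end were the calcium channel gene Trpc6 (6.89 ± 0.27), Cdh3 (6.14 ± 0.06) and Kirrel3 (5.51 ± 0.23), all under the median gene of the array. The median SD was close to that of all genes (0.127), none of the 16 had an SD of 0.5 or more, near the share of 2.03% (369 of 18193 genes) on the array, and the list mean ran from 10.91 in mouse 4 to 11.01 in mouse 2.

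The second podocyte list holds genes of the actin skeleton, the apical membrane and transcription. Of its 34 genes 33 were measured, with a median of 12.07 and 17 members of at least 12. Cdkn1c, the inhibitor of cell division that mature podocytes keep switched on, read 13.58, 13.86, 13.54, 13.65 and 13.62. Of actin and foot process genes, Synpo (synaptopodin) read 13.26 ± 0.11, Clic5, a partner of ezrin, 13.17 ± 0.10, Actn4, which crosslinks actin, 13.00 ± 0.12, Myo1e, a membrane-bound myosin, 11.71 ± 0.24 and Inf2, an actin-nucleating formin, 10.49 ± 0.21. Npnt (nephronectin, a basement membrane ligand of integrins) read 13.11 ± 0.09 and the serine protease gene Htra1 13.15 ± 0.06.

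Among the regulators, Tcf21, a helix-loop-helix factor of podocyte development, read 12.72, 12.83, 12.96, 12.75 and 12.53. Wt1, the zinc finger factor after which the mouse line is named, read 11.41, 11.40, 11.45, 11.06 and 11.19, with mouse 4 lowest (chromosome 2, a single probe set). The forkhead gene Foxc2 read 11.24 ± 0.16, the nuclear factor gene Dach1 10.14 ± 0.17 and the LIM homeobox gene Lmx1b 9.26 ± 0.21. Mouse 4 had the lowest signal of Wt1, Foxc2 and Lmx1b, but Dach1 was lowest in mouse 1 (9.94) and Tcf21 in mouse 5. Mouse 4 was lowest in 15 of the 33 measured genes of this list, so a low signal in it was not particular to these regulators. Nor was it particular to this list. Mouse 4 was lowest in 8 of 16 slit diaphragm, 9 of 18 basement membrane and 7 of 19 mesangial genes, but in 2 of 30 endothelial genes. Over all genes, mouse 4 lay farthest from the median of the other mice, on the low side, in 15.04%. Vegfa, the growth factor by which podocytes sustain the endothelium, read 11.97, 12.08, 12.04, 11.86 and 11.88. Plce1, a phospholipase whose loss causes nephrotic syndrome in people, read 11.96, 11.73, 12.02, 11.89 and 12.01. The most variable member was Gas1, a membrane-anchored co-receptor of Hedgehog ligands, at 12.31, 13.13, 12.11, 12.59 and 12.89, with mouse 2 highest. Robo2, a guidance receptor, read 5.85 ± 0.33 and the prostaglandin synthase gene Ptgds 8.20 ± 0.23.

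Basement membrane genes showed the collagen chains of the mature filter beside those of other basement membranes. Of 18 genes, all measured, 8 had a signal of at least 12 and the median was 11.69. Col4a1 (13.93 ± 0.11) and Col4a2 (13.28 ± 0.12), the chains found in most basement membranes, were joined by the glomerular chains Col4a3 (12.91 ± 0.10), Col4a4 (13.59 ± 0.11) and Col4a5 (12.27 ± 0.20). The chain gene Col4a6, which belongs to Bowman's capsule and tubule, read 7.34 ± 0.11 and lay near the median gene. The laminin chains of the mature glomerulus, Lama5 (10.48 ± 0.19), Lamb2 (10.89 ± 0.20) and Lamc1 (11.43 ± 0.12), lay well above the median gene, while Lama1, a chain of the immature membrane, read 5.16, 5.94, 5.39, 5.42 and 5.61. Lamb1, the beta chain that Lamb2 replaces during maturation, read 11.55 ± 0.16. Of proteoglycans, agrin (Agrn) read 12.20 ± 0.05, Col18a1 11.82 ± 0.08 and perlecan (Hspg2) 9.75 ± 0.15. The list mean ran from 11.04 in mouse 3 to 11.28 in mouse 2, and 10 of 18 members were highest in mouse 2, as were 20.4% of all genes. This was not particular to the basement membrane. Mouse 2 was also highest in 7 of 16 slit diaphragm genes, 16 of 33 of the second podocyte list and 15 of 30 endothelial genes. Among mesangial genes it was highest in 5 of 19.

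Endothelial genes had a median of 11.91 over 30 measured genes, between those of both podocyte lists, and 14 had a signal of at least 12. Ehd3, an endocytic ATPase used as a marker of glomerular endothelium, read 13.86, 13.98, 13.82, 13.85 and 13.88. Emcn, a sialomucin of capillary endothelium, read 13.80, 13.81, 13.99, 13.91 and 13.78. The VEGF receptor gene Kdr read 12.44, 12.50, 12.73, 12.60 and 12.43, and the second VEGF receptor gene Flt1 11.09 ± 0.05. The angiopoietin receptor gene Tek read 12.44 ± 0.12, Tie1 11.04 ± 0.23, the TGF-beta co-receptor gene Eng 12.75 ± 0.14, Pecam1, a junctional adhesion molecule, 11.92 ± 0.17 and the transcription factor gene Ets1 13.19 ± 0.12. Vwf, the clotting factor of larger vessels, read 4.67 ± 0.11. The member with the largest SD was Lpl, the lipase that clears triglycerides in capillaries, at 13.38, 12.25, 12.56, 13.27 and 12.43. Mice 1 and 4 lay above the other mice in it, and its second probe set split the mice the same way (11.50, 10.13, 10.18, 11.46 and 10.35). Lpl was the only 1 of the 116 glomerular genes with an SD of 0.5 or more (0.86%, against 2.03% of all genes).

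Mesangial and pericyte genes had a median of 10.79 over 19 measured genes, 7 of them at 12 or more. Sfrp2, a secreted Wnt modulator (13.76 ± 0.08), Itga8, the integrin of mesangial adhesion (13.72 ± 0.05), Cald1, an actin-binding regulator of contraction (13.60 ± 0.03), the angiotensin receptor gene Agtr1a (13.14 ± 0.14) and the PDGF receptor gene Pdgfrb (13.12 ± 0.16) led the list. Gata3, the transcription factor that marks the mesangium, read 10.67, 11.23, 10.56, 10.56 and 10.93. The intermediate filament gene Des read 10.72 ± 0.06, and Thy1, a mesangial antigen best known from the rat, 5.41 ± 0.15. Of 11 smooth muscle and juxtaglomerular genes the myosin light chain gene Myl9 (13.25 ± 0.20) and its kinase gene Mylk (12.67 ± 0.08) were above 12, Acta2 read 11.70, 11.76, 11.09, 11.13 and 11.51, and the late smooth muscle markers Myh11 (8.50 ± 0.27) and Cnn1 (5.55 ± 0.11) were lower.

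**Figure D2:**
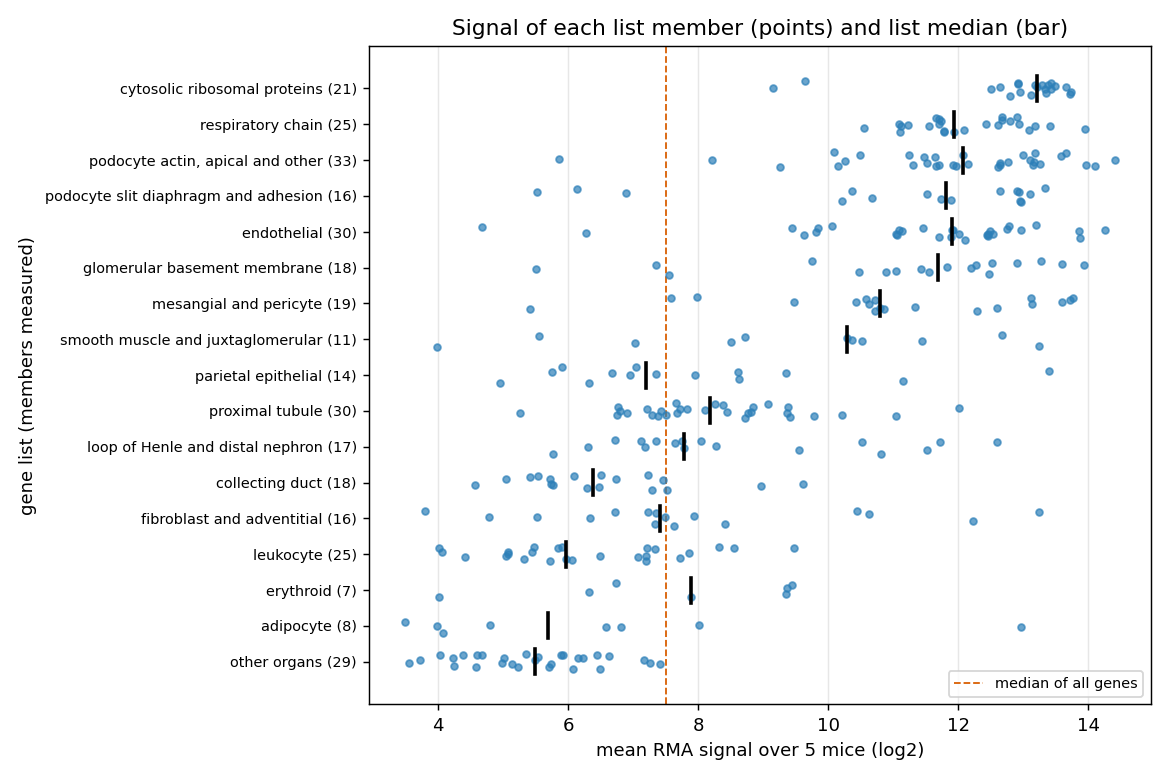
Mean RMA signal over 5 wild-type mice (log2, horizontal axis) of every measured member of 17 gene lists, 1 point per gene, with the list median as a bar and the median of all genes (7.50) as a dashed line. The medians of the podocyte, endothelial and basement membrane lists lie between 11.69 and 12.07, and those of the tubule lists between 6.39 and 8.18.

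Cells outside the tuft gave lower signals. The parietal epithelium, which lines Bowman's capsule, had a median of 7.20 over 14 genes, although Cd24a (13.40 ± 0.29), a surface glycoprotein also made by other cells, was bright. Tubule lists had medians of 8.18 for the proximal tubule (30 genes), 7.78 for the loop of Henle and distal nephron (17 genes) and 6.39 for the collecting duct (18 genes). A few of their members were nevertheless bright: Cyp4b1, a cytochrome P450 (12.01 ± 0.20), Umod, the urinary protein uromodulin of the thick ascending limb (11.72 ± 1.37), Egf (11.52 ± 0.27) and the androgen-regulated kidney gene Kap (11.04, SD 0.999). The kinase gene Wnk1, which is not restricted to tubule, read 12.59 ± 0.04. Leukocyte markers had a median of 5.96 over 25 genes, and about 32% of all genes lay under that value. In this list 13 genes were under 6, and the macrophage receptor gene Csf1r led it (9.47 ± 0.37). Adipocyte markers had a median of 5.68 over 8 genes. The exception was Fabp4 (12.96 ± 0.23), a fatty acid carrier that capillary endothelium also makes and that the endothelial list shares, while Adipoq read 3.49 ± 0.10. In the fibroblast list (16 genes, median 7.42) Gsn (13.24 ± 0.09) and Col1a2 (12.22 ± 0.10) were bright. Col1a1, the partner chain of Col1a2 in type I collagen, read only 5.51 ± 0.10, and Lum, Dpt and Dcn read 3.79 ± 0.20, 4.77 ± 0.04 and 7.49 ± 0.26.

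Most genes hardly differed between the 5 mice. The median SD over 18193 genes was 0.127, the 90th percentile 0.260 and the 99th 0.676. An SD of 5 values is itself loose, with a 95% chi-square interval from 0.599 to 2.874 times the value. The steadiest genes in the top 10% by signal had SDs of 0.011 to 0.019. They were Srpr, a receptor of the protein export machinery, the small GTPase gene Rac1, Mocs2, Ndfip2, Atp1b3, Sri, Ube2a, Emc7, Rmnd5a and Atp5j. Ribosomal protein genes (median SD 0.08 over 21 genes) and respiratory chain genes (0.10 over 25) were also steady. The 116 glomerular genes had a median SD of 0.132, near that of all genes.

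An SD of at least 0.5 was found in 369 genes (2.03%) and of at least 1 in 72 (0.396%). Genes on either side of the second limit were alike, with SDs of 1.009 for Acaa1b, 1.006 for Hsph1 and 1.003 for Cyp26b1 just inside it and 0.999 for Kap and 0.996 for Col14a1 just outside. Each gene was assigned to the mouse whose signal lay farthest from the median of the other 4. In 164 of the 369 genes (44.4%, or 0.901% of all genes measured) this was mouse 5, on the low side. Without regard to SD, mouse 5 was the low one in 8.82% of all genes. Mouse 3 accounted for 55 low and 55 high genes (0.302% of all genes each). That is 14.91% of the 369 either way, where without regard to SD mouse 3 was the low one in 8.18% of all genes and the high one in 15.9%. Mouse 2 accounted for 32 high and 16 low, or 8.67% and 4.34% of the 369. Without regard to SD it was the high one in 10.7% and the low one in 8.76% of all genes. Mouse 4 accounted for 13 high (3.52%, against 6.68% of all genes) and 3 low (0.813%, against 15.04%). Mouse 1 accounted for 10 high (2.71%, against 5.58%) and 9 low (2.44%, against 8.43%), and mouse 5 for 12 high (3.25%, against 11.87%). The shares of mice 1 and 4, and of mouse 5 on the high side, thus lay under those of all genes. Among the 72 genes mouse 5 was the low one in 58 (0.319% of all genes) and mouse 3 in 8 (0.044%). Without mouse 5 the number of genes with an SD of at least 1 fell to 19, and without mice 3 and 5, an alternative chosen after seeing the data, to 6. Where such a gene had a second probe set with a mean of at least 6, it pointed to the same mouse for 76 of 107 genes with an SD of 0.5 or more (71.0%) and for 16 of 20 with an SD of 1 or more (80.0%), against 1608 of 5653 genes in all (28.4%).

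**Figure D3:**
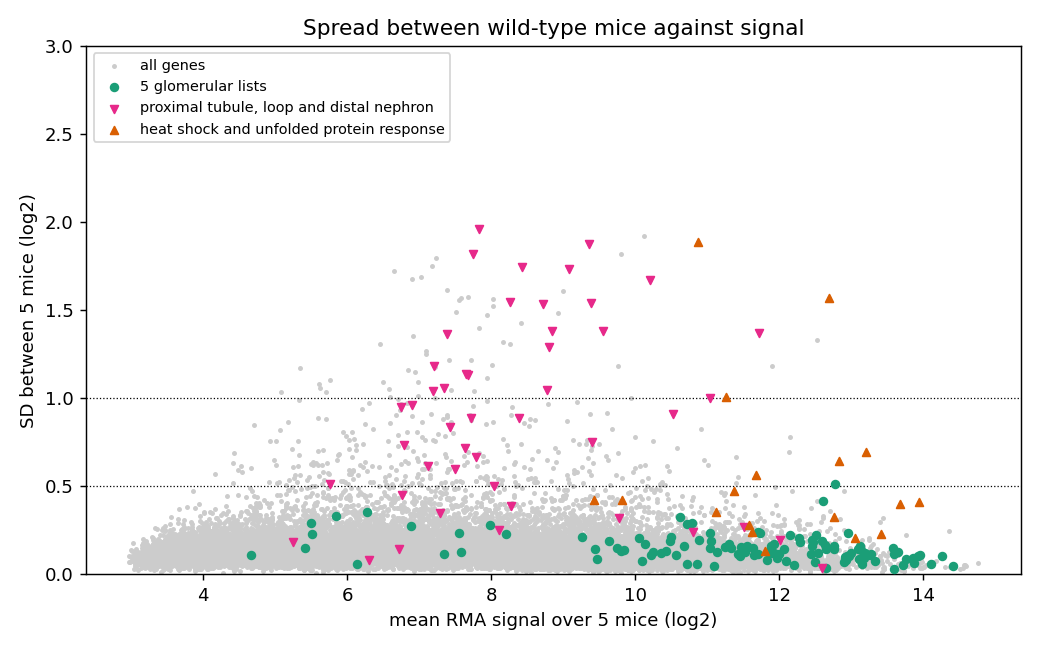
SD between 5 wild-type mice (log2, vertical axis) against mean RMA signal (log2, horizontal axis) for 18193 genes (grey), with members of 5 glomerular lists, of the proximal and distal tubule lists and of the heat shock list marked. Dotted lines stand at SDs of 0.5 and 1. Only 1 glomerular gene lies above 0.5, against 35 of 47 tubule genes and 6 of 18 heat shock and unfolded protein response genes.

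Tubule genes were frequent among the variable genes, and mouse 5 had the lowest signal of most of them. The proximal tubule reabsorbs most of the filtered salt, glucose, amino acids and phosphate. Slc5a12, a lactate transporter of its brush border, had the largest SD of the array (1.96) at 9.08, 7.74, 8.78, 9.06 and 4.46 (chromosome 2). Mouse 5 lay 22.1-fold under the median of the other mice, and the second probe set of the gene also had it lowest (8.70, 6.87, 8.10, 8.53 and 4.50). Miox, which breaks down inositol, read 10.65, 9.10, 10.11, 10.72 and 6.21, an 18-fold gap. The phosphate carrier gene Slc34a1 read 10.42, 9.26, 9.97, 10.51 and 6.78. Lrp2, which encodes the endocytic receptor megalin, read 8.45, 7.19, 7.72, 8.43 and 5.13. In each of these genes mouse 5 stood apart below, mouse 2 was second lowest, and mice 1 and 4 were highest.

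The proximal list as a whole had a median SD of 1.02, and 24 of 30 genes had an SD of at least 0.5 and 15 an SD of at least 1. Its mean was 8.98, 8.31, 8.48, 9.07 and 6.61, a range of 2.45 or 5.48-fold. Mouse 5 was lowest in 27 of 30 genes, as in 17.3% of all genes. Without mouse 5 the other mice spanned 0.76. Other members in the 25 most variable genes were Keg1 and Acsm2, which conjugate and activate acids, Fbp1, an enzyme of glucose synthesis, the oxidase gene Hao2 and the protease inhibitor gene Spink1. Genes outside the lists that behaved alike included Cltrn, an amino acid transporter partner (10.94, 9.95, 10.62, 10.85 and 6.62), the glucose exporter gene Slc2a2, the glucose-6-phosphatase gene G6pc, the arachidonate epoxygenase gene Cyp2j5, the fucosyltransferase gene Fut9, the oxidase gene Nox4, Glyat, Ugt2b38, Tinag, Dnase1 and the calcium-binding S100g. The gap was small in some listed genes, where mouse 5 minus the median of the others was -0.27 for Cyp4b1 and -0.31 for Slc22a12. In Slc7a13, Acsm3 and the water channel gene Aqp1, which endothelium of other vessels also makes, mouse 5 lay within the range of the other mice. Kap was low in mouse 3 as well as mouse 5 (11.50, 11.46, 10.40, 12.16 and 9.65).

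The loop of Henle and distal nephron were also lowest in mouse 5, but their order among the other mice differed. Umod read 12.49, 11.43, 12.91, 12.30 and 9.47. Slc12a1, the furosemide-sensitive salt carrier of the same segment, read 10.22, 9.23, 11.07, 9.83 and 7.39, and Calb1, the calcium-binding calbindin of the distal tubule, 8.78, 8.20, 8.44, 8.78 and 4.53. Mouse 3 was highest for both thick limb genes. The list mean was highest in mouse 3 (9.18) and lowest in mouse 5 (7.59), 11 of 17 genes had an SD of at least 0.5, and 12 of 17 were lowest in mouse 5 (17.3% of all genes). Collecting duct genes varied less, with 1 of 18 at an SD of 0.5 or more (Hsd11b2) and Aqp2, the vasopressin-regulated water channel, at 7.52, 7.38, 7.93, 7.50 and 7.30. Of the 164 genes that were low in mouse 5 at an SD of 0.5 or more (0.901% of all genes), 32 came from the 47 genes of both tubule lists. None came from the 116 glomerular genes, a count near that background share. The Actb control probe sets differed by 0.41 between the 3′ and 5′ ends in mouse 5 and by 0.20 to 0.27 in the other mice, a measure of RNA integrity, and its part in these values was not tested. For Gapdh the same difference was -0.04 in mouse 5 and -0.17 to 0.07 in the others.

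**Figure D4:**
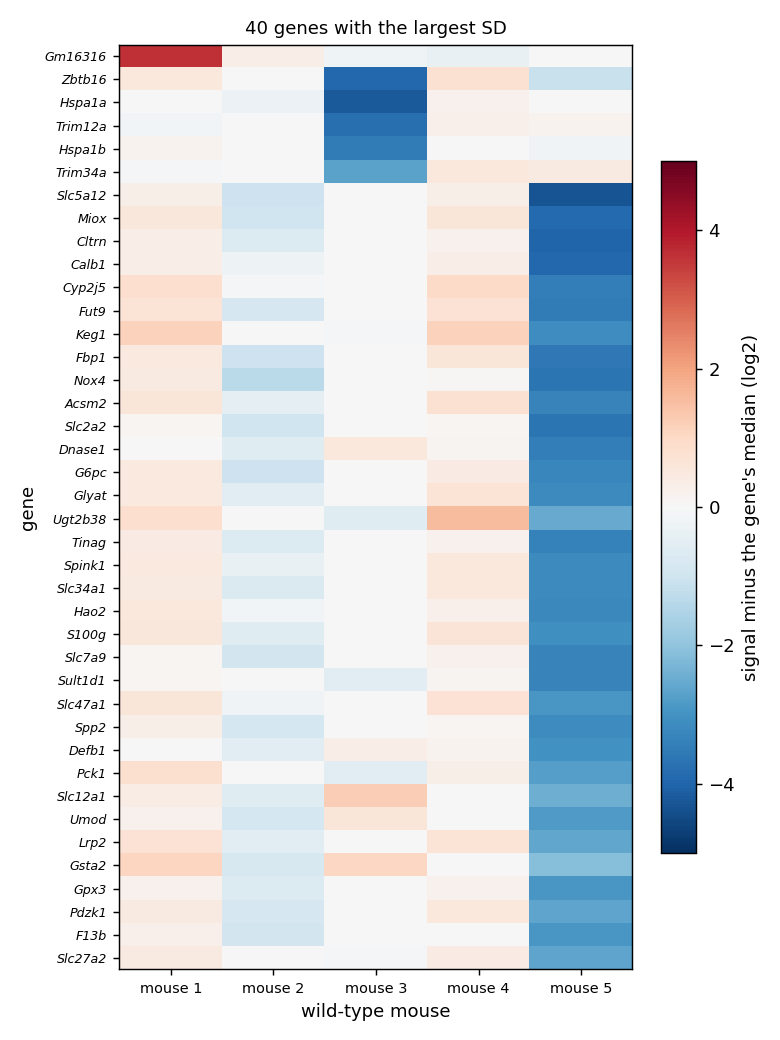
Signal of the 40 genes with the largest SD in each wild-type mouse, as the difference from the gene's median over the 5 mice (log2, colour), rows sorted by the mouse farthest from the others. In 34 rows mouse 5 is the low mouse, in 5 rows mouse 3, and Gm16316 is high in mouse 1.

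Mouse 3 had the lowest signal of every measured gene of the heat shock and unfolded protein response list. Heat shock proteins refold damaged proteins in the cytosol and mitochondria, and the unfolded protein response raises the corresponding chaperones of the endoplasmic reticulum. The inducible cytosolic Hsp70 genes varied most: Hspa1a read 11.73, 11.42, 7.52, 11.96 and 11.74 (chromosome 17), an 18.6-fold gap between mouse 3 and the median of the others, and Hspa1b read 13.55, 13.38, 9.89, 13.40 and 13.21, an 11.3-fold gap. Both further probe sets of Hspa1b gave the same picture (8.83 and 9.30 in mouse 3, 12.58 to 13.18 in the others). The transcripts of this gene pair are nearly identical, so probes may read both and their separate levels are uncertain. Hsph1, a nucleotide exchange factor of Hsp70, read 11.86, 11.43, 9.48, 11.86 and 11.64, the small heat shock protein gene Hspb1 13.74, 13.65, 12.02, 13.35 and 13.26, and the inducible Hsp90 gene Hsp90aa1 13.38, 12.93, 11.74, 13.20 and 12.94. In each of these genes mouse 3 lay more than 1 unit under every other mouse, and the others lay close together.

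Over the list of 18 genes (median signal 11.74), mouse 3 was lowest in 18 (16.6% of all genes), by 0.23 to 4.22 below the median of the other mice, with a median gap of 0.79. The list mean was 12.37, 12.13, 11.06, 12.26 and 12.22, so the mice other than mouse 3 spanned 0.25. In the endoplasmic reticulum, Hspa5, the master chaperone BiP, read 13.96, 13.78, 12.97, 13.87 and 13.79, and Herpud1, a part of the degradation machinery, 11.94, 11.62, 10.72, 12.13 and 11.98. Hsp90b1 (13.05 ± 0.21), Calr (13.42 ± 0.23) and Atf4 (11.80 ± 0.13) had smaller gaps. Outside the list, and named after their values were seen, the endoplasmic reticulum stress genes Manf (12.63, 12.20, 10.93, 12.56 and 12.33) and Creld2 (11.30, 10.75, 9.38, 10.89 and 10.59) were also lowest in mouse 3. Cirbp, an RNA-binding protein gene known to rise with cold, went the other way at 7.24, 7.40, 9.43, 7.54 and 7.12. It too was named after its values were seen, and a part of temperature in these values was not tested.

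Bases upstream of these genes are shown because their members moved together. The 250 bases before each start in the RefSeq promoter table (build GRCm38.p6) were searched on both strands for GAANNTTC, a core of the heat shock element (its reverse complement is the same), and for the endoplasmic reticulum stress element, CCAAT and CCACG with 9 bases between them, which contains a CCAAT box. The first was found in 6.69% of 32851 promoters, in 7.73% of the 27025 genes that have one, and in 5 of 16 list members that have one (Hspa1a, Hspa1b, Hspb1, Hspd1 and Hspe1). The second was found in 0.113% of promoters, 0.130% of genes and 3 of 16 (Calr, Hsp90b1 and Hspa5). Both motifs were picked for the responses after which this list is named, so these shares are no test of enrichment. A match of letters is a description and not a bound site. Capitals mark the matches in the last 160 bases before the start, written 5′ to 3′ on the strand of the gene, at chr17:34972157-34972316 (minus strand) for Hspa1a, chr5:135887759-135887918 (plus) for Hspb1, chr1:55087988-55088147 (plus) for Hspe1, chr2:34771930-34772089 (plus) for Hspa5 and chr10:86705445-86705604 (minus) for Hsp90b1.
Hspa1a: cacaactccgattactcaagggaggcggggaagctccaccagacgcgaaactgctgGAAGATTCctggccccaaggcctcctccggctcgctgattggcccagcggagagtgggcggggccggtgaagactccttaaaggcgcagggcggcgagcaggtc
Hspb1: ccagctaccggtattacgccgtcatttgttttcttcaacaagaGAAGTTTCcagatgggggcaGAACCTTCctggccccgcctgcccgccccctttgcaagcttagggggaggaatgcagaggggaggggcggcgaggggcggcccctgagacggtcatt
Hspe1: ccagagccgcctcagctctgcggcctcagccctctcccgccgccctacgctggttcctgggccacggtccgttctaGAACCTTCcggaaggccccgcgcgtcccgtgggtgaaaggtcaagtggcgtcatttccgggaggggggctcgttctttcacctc
Hspa5: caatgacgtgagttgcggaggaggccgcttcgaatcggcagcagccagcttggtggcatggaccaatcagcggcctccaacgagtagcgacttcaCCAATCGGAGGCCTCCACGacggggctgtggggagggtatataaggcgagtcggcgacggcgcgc
Hsp90b1: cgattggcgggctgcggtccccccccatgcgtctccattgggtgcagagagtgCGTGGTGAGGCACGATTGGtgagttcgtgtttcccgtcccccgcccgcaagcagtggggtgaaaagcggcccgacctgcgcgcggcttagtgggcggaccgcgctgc
The Hspa1b window matched that of Hspa1a in 159 of 160 letters, and the single match of Hspe1 lies between it and its divergent neighbour Hspd1. The gaps of mouse 3 in the printed genes ran from the 18.6-fold of Hspa1a to the smaller ones of Hspe1 (11.12 ± 0.35) and Hsp90b1.

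The second most variable gene of the array, Zbtb16, was low in mouse 3 too. Zbtb16 encodes a transcriptional repressor that glucocorticoids induce, and read 11.40, 10.87, 6.93, 11.63 and 9.76, with an 18.4-fold gap. Both of its other probe sets were likewise lowest in mouse 3 (4.29 and 6.37, against 6.80 to 8.87 in the others). A list of 17 measured glucocorticoid-responsive genes was drawn up after this was seen, so it was chosen on these samples and its direction is no independent evidence. Mouse 3 was lowest in 10 of them (16.6% of all genes), among them Fkbp5, a chaperone partner that dampens the hormone receptor (9.94, 10.02, 8.55, 10.30 and 9.99), Klf15, a regulator of amino acid breakdown (7.86, 8.98, 6.85, 8.62 and 9.15), and Tsc22d3, which encodes the leucine zipper GILZ (11.44, 11.76, 10.55, 11.39 and 11.88). Not all members were low in it: the metallothionein genes Mt1 and Mt2, which bind metals, lay above every other mouse in mouse 3, by 0.55 and 0.44 over the median of the others. Sgk1, a hormone-induced kinase, read 13.79 ± 0.07, and the list mean ran from 8.97 in mouse 3 to 9.78 in mouse 5.

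Of the circadian clock genes, also listed after the values were seen, Per2 read 7.76, 7.83, 5.28, 7.90 and 8.34, and Per1 read 8.79, 9.50, 7.40, 8.41 and 9.87. Both are also glucocorticoid-responsive repressors of the clock. The activators Clock (10.28 ± 0.05) and Arntl (9.17 ± 0.12) and the output gene Dbp (10.62 ± 0.40) varied less, and mouse 3 was lowest in 8 of 17 (16.6% of all genes). Dbp was among these, with mouse 3 minus the median of the others at -0.74. Arntl and Npas2 went the other way and were highest in mouse 3, by 0.20 and 0.62 over that median. The other probe sets of Per2 had means of 6.40 and 6.55 and SDs of 0.22 and 0.30. The hour of collection was not stated in the sources used here.

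Further low signals in mouse 3 lay within one gene cluster on chromosome 7. Trim12a read 7.18, 7.34, 3.58, 7.60 and 7.53, Trim34a 8.47, 8.51, 5.84, 9.03 and 8.94, and Trim30d 5.98, 6.53, 3.83, 6.15 and 6.35. These are antiviral tripartite motif genes of a tandem family, in which similar sequences can share probes. Of the measured genes between them in the RefSeq order, Trim5 (4.38, 4.72, 4.11, 4.52 and 4.55) and Trim30a (9.52, 9.57, 9.22, 9.53 and 9.48) were also lowest in mouse 3, by much less. Trim12c was highest in it (9.43, 9.52, 9.89, 9.52 and 9.49). The second probe sets of Trim12a (4.91 ± 0.08) and Trim34a (6.21 ± 0.39, mouse 3 highest at 6.80) did not show it either. Trim34a and Trim30d were named after their values were seen.

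Most leukocyte markers were high in mouse 3. The pan-leukocyte phosphatase gene Ptprc read 7.29, 6.69, 9.08, 7.74 and 7.82, and the lysozyme gene Lyz2 7.96, 7.58, 9.89, 8.72 and 8.57. The neutrophil calgranulin genes S100a8 (6.38, 6.28, 8.08, 7.51 and 7.13) and S100a9 (6.72, 6.29, 8.57, 7.50 and 7.55) likewise had mouse 3 highest and mouse 2 lowest. Mouse 3 was highest in 17 of 25 leukocyte genes (28.4% of all genes), and the list mean ran from 5.96 in mouse 2 to 6.81 in mouse 3. The macrophage markers Adgre1 (5.08 ± 0.13) and C1qa (5.08 ± 0.08) stayed low in all mice. Csf1r, the brightest member, did not follow, with 9.98 in mouse 2, its highest, and 9.45 in mouse 3. Jchain, a dim member, was lowest in mouse 3 (3.97). The part of leukocytes in the low chaperone and glucocorticoid genes of mouse 3 was not tested.

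Mouse 2 stood apart in early response and replication genes. Immediate early genes are switched on within minutes of a stimulus. Fos read 9.32, 10.64, 8.96, 8.79 and 9.75, the orphan receptor gene Nr4a1 10.47, 12.04, 9.89, 10.84 and 11.36, and the matricellular gene Ccn1 9.10, 10.37, 8.05, 9.28 and 10.07. Mouse 2 was highest in 16 of 23 genes (20.4% of all genes) and mouse 5 was second in the 3 named, and the list mean ran from 9.20 in mouse 3 to 9.85 in mouse 2. Jun (11.36 ± 0.23) varied less. Egr1 (9.56 ± 0.29) did not follow, with its highest signal in mouse 3 (10.04) and 9.51 in mouse 2. Egr3 was lowest in mouse 2 (6.90, against 6.92 to 7.12 in the others). In Egr2, Ier2, Klf6, Zfp36 and Socs3 mouse 2 lay within the range of the others.

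Cell cycle genes were lowest in mouse 2. Mcm6 and Mcm5, subunits of the replicative helicase, read 9.05, 7.70, 9.39, 9.22 and 9.25, and 9.52, 8.18, 9.21, 9.59 and 9.44. Pcna, the sliding clamp of DNA polymerase, read 12.55, 12.02, 12.50, 12.57 and 12.50. Mouse 2 was lowest in 18 of 23 genes (18.7% of all genes), and the list mean ran from 7.90 in mouse 2 to 8.63 in mouse 5. The proliferation marker gene Mki67 (9.55, 8.93, 8.97, 9.78 and 9.84) was low in mice 2 and 3 alike. Cyp26b1, which degrades retinoic acid, also had its lowest signal in mouse 2 (10.54, 8.40, 10.41, 10.86 and 9.47), as did Angptl4, an inhibitor of lipoprotein lipase (9.68, 8.15, 9.63, 9.55 and 9.94). The 5′ control probe set for 18S ribosomal RNA read 12.83 in mouse 2 and 7.87 to 9.52 in the others. Its part in the values of mouse 2 was not tested.

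Few genes singled out mice 1, 4 or, on the high side, 5. The predicted gene Gm16316 read 10.002, 6.68, 6.12, 5.98 and 6.33, high in mouse 1 alone, and Sdc4, the cell surface proteoglycan syndecan-4, ran from 13.62 in mouse 1 to 10.63 in mouse 5 (12.55, 11.48 and 11.24 in mice 2 to 4). Its second probe set, with a mean of 7.95, did not show this order (8.14, 7.93, 8.41, 7.61 and 7.67). Grp, a neuropeptide gene, was lowest in mouse 1 (5.12, 7.67, 5.84, 6.33 and 7.52). Erythroid genes were highest in mouse 5 in 5 of 7 cases, as were 24% of all genes. Alas2, the first enzyme of red cell heme synthesis, read 9.59, 8.76, 9.20, 9.01 and 10.27. The globin gene Hbb-b2 read 7.73, 7.43, 7.87, 7.42 and 8.98, where near-identical globin genes may share probes. The globin genes Hba-a2 and Hba-a1 did not follow. Hba-a2 was lowest in mouse 5 (6.04, against 6.13 to 6.81 in the others). For Hba-a1, a dim gene (4.01 ± 0.15), mouse 5 lay within the range of the others. Col14a1, a fibril-associated collagen, was high in mice 2 and 5 (5.83, 7.61, 6.10, 6.05 and 7.96). Sdc4 and Grp were named after their values were seen.

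**Figure D5:**
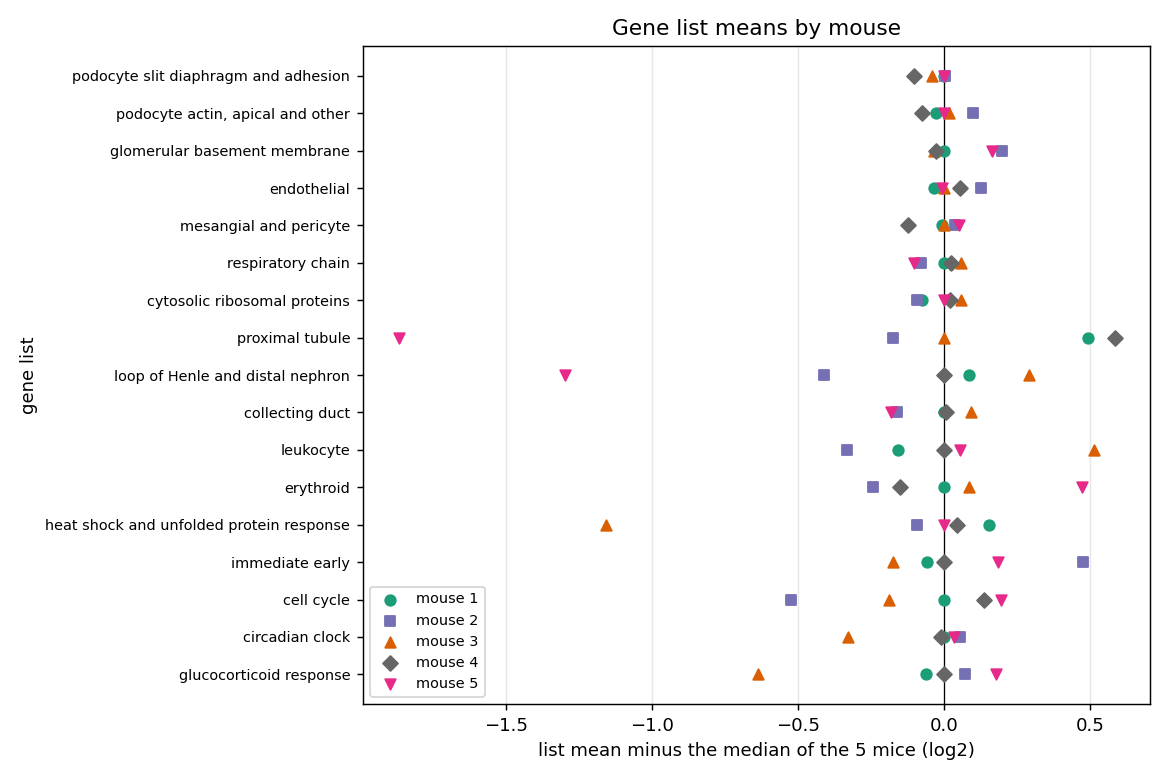
Mean of each gene list in each wild-type mouse, as the difference from the median of the 5 mice (log2, horizontal axis), for 17 lists. Glomerular, respiratory chain and ribosomal lists lie close to 0, mouse 5 lies far to the left in both tubule lists (list means of 6.61 and 7.59) and mouse 3 in the heat shock list (11.06).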

How the data were processed

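The deposited values are log2 signals, made with RMA per the submitters' processing notes. RMA (robust multi-array average) corrects background, equalises the arrays' quantiles and combines the probes of each set into 1 value. Its version and settings were not given in the sources used here. RMA makes arrays alike in distribution and compresses differences of dim genes, so levels near the bottom of the scale carry little information, and it would hide a difference in total RNA.

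Of 45101 probe sets, 64 controls were left out. The platform annotation gave 1 gene for 34945, several for 932 and none for 9160, and 34741 matched RefSeq (GRCm38.p6) by gene number. Genes with several probe sets (9011 of 18193) were read from the one with the highest mean over the 5 arrays. With a single group no test between groups was made, and replicates are separate mice. Mean, SD and the farthest mouse were computed per gene with pandas (version 2.3.3) in Python (version 3.11.15) and tested on simulated data.

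Named genes are the 25 highest means, the 25 largest SDs, the 15 largest SDs among genes (mean of at least 6) whose highest array is not that of the proximal tubule list, the 10 smallest SDs in the top 10% by mean, the 5 highest means and 2 largest SDs of each of 21 lists, and a fixed set. Other list members and genes, and the circadian and glucocorticoid lists, were chosen once values were known. The members and lists were chosen with earlier results of these data known. Alternatives covered the probe set rule, leaving out cross-matching probe sets (suffix _s_at, _x_at or _a_at), centring, quantile normalization, a signal minimum, a robust spread and each mouse left out.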

Additional observations from a re-analysis of the deposited data

Results flagged for a closer look

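For 38 of 232 reported levels and list means (16.4%), the highest or lowest mouse lay far from the other 4 relative to their whole range, by a criterion that chance meets in about 1 of 20 groups and that 7.07% of all 18193 genes met. Many of these genes were named for their large spread, so the share is a description. Mouse 3 was the low mouse in 17 of them, 15 genes and 2 list means. Its heat shock list mean was 11.06 (nearest other mouse 12.13), with Hspa1a at 7.52, Hspa1b 9.89, Hsph1 9.48, Hsp90aa1 11.74, Hspb1 12.02, Hspa5 12.97, Hspa8 13.22, Calr 13.02 and, outside the list, Manf 10.93. The circadian list mean of mouse 3 was 8.20 (nearest 8.52), Per2 was 5.28 and Fkbp5 8.55. That list was drawn up after the values were seen. Its 17 genes had a median gap of -0.23 between mouse 3 and the median of the others, against -2.58 for Per2 and -1.75 for Per1. On chromosome 7 Trim12a was at 3.58, Trim34a 5.84, Trim30d 3.83 and Trim30a 9.22. Mouse 3 was the high one for Cirbp (9.43), Trim12c (9.89) and the Y-linked Eif2s3y (9.63).

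Mouse 5 was the low one in 9 genes, most of them of tubule, and the high one in a globin. Its levels were 4.46 for Slc5a12, 4.53 for Calb1, 4.13 for Cyp2j5, 5.50 for Keg1, 5.58 for Spink1, 6.004 for Hao2, 6.62 for Cltrn, 7.35 for Acsm2, 6.22 for Dnase1 and 8.98 for Hbb-b2. Mouse 2 was low in the replication genes Mcm5 (8.18), Mcm6 (7.70) and Pcna (12.02), in Angptl4 (8.15) and in Trpc6 (6.41), and high in Tek (12.65). Mouse 4 was low in Tjp1 (12.78), and mouse 1 was high in Gm16316 (10.002). The gaps of Tek, Tjp1 and Trim30a are small, with nearest other mice at 12.41, 12.91 and 9.48.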

How the results depend on the processing

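Values moved with the probe sets used and with mice 3 and 5. The median levels of the lists moved beyond the spread for 20 of 23 lists with the mean of all probe sets, 16 of 23 without cross-matching probe sets and 9 of 23 with only genes of a mean of at least 6, for 1 of 115 with 1 mouse left out, and for none of 23 under the other normalizations. The count of genes with an SD of at least 1 (72) was 26 with a robust spread (the scaled median absolute deviation), 19 to 96 with 1 mouse left out, and 6 without mice 3 and 5, which was chosen after seeing the data. The count at 0.5 (369) was 272 to 441 with 1 mouse left out and 220 without mice 3 and 5. The median SD (0.127) was 0.116 with the mean of all probe sets of a gene, 0.0995 with the robust spread, 0.119 to 0.128 with 1 mouse left out and 0.109 without mice 3 and 5. The median level (7.50) was 6.78 with the mean of all probe sets, 7.09 without cross-matching probe sets and 8.86 with only genes of a mean of at least 6, settings that change which probe sets or genes enter. The range of the proximal tubule list mean (2.45) was 0.79 to 2.52 with 1 mouse left out and the probe sets chosen anew, lowest without mouse 5, and that of the heat shock list (1.31) was 0.25 to 1.31, lowest without mouse 3.

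Of 2244 recomputed gene means 147 moved by more than the gene's SD, all of them with the mean of all probe sets (107) or without cross-matching probe sets (40), and of 2452 recomputed gene SDs 333 moved. Gene levels are thus tied to the probe set that reads them. No paired analysis was possible because the description covers a single group. Precision is limited by 5 arrays.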
